A study of Mus musculus with 135 samples.

Results

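The FoxO transcription factors *Foxo1* and *Foxo3*, the FoxO-regulated genes *Sesn1*, *Sesn3* and *Txnip*, and the antioxidant enzymes *Sod1*, *Sod2*, *Cat*, *Prdx1* and *Gpx1* were followed in single haematopoietic stem cells (HSCs) of a young and an old mouse. These 10 genes were taken by name, and all 10 were among the 15181 genes of the count table. HSCs were Lin−Sca-1+c-Kit+ (LSK) CD150+CD48− bone marrow cells that excluded the dead-cell dye 7AAD. Both mice were C57BL/6 and carried the *Vwf*-eGFP reporter transgene, which reports the platelet gene *Vwf*, and all captured HSCs were used whether or not they expressed the reporter. The young mouse was 2 to 3 months old and the old mouse 20 to 25 months old. Each age was 1 mouse, captured in a separate experiment on microfluidic chips, so the cells of an age are not replicates of it and no test between ages was possible.

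FoxO factors are held in the cytoplasm when growth factor signals activate the kinase Akt, and enter the nucleus when that signal falls. In the nucleus they bind the letters GTAAACA and switch on genes for cell cycle arrest, autophagy and the removal of reactive oxygen species. In HSCs, FoxO factors are known for keeping cells quiescent and reactive oxygen species low, and mice lacking them lose their HSCs. Superoxide dismutases turn superoxide into hydrogen peroxide, which catalase, glutathione peroxidases and peroxiredoxins then remove.

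A total of 52 young and 62 old HSCs passed the limits of the study's methods on mapped reads, mitochondrial reads and detected genes. These cells held 273236 to 5688706 counted reads in the young mouse and 276316 to 4086659 in the old. Levels are given as log2(CPM + 1), where CPM scales a cell's counts to the same total in every cell, and a cell is called expressing where this value is above 2. Differences are old minus young in the mean of log2(CPM + 1), and a gene was called higher or lower where the difference reached 1, a rule of size and not a test. Of the 9374 genes that at least 10% of the 114 cells expressed, 6.24% were called higher and 6.98% lower in old HSCs, and their median difference was −0.07. All 10 listed HSC markers were expressed, from *Meis1* in every cell and *Kit* in 49 young and 61 old cells to *Slamf1*, which encodes the sorting marker CD150, in 9 young and 15 old cells and *Fgd5* in 6 and 14. Granulocyte transcripts were found in 7 young and 4 old cells and erythroid transcripts in 0 and 3. *Cd79b*, the only B cell gene of the list in the table, was expressed in 12 young and 16 old cells. T cell genes were expressed in 19 cells of each age, and platelet and megakaryocyte genes in 21 young and 40 old cells. Of the macrophage and monocyte genes, *Lyz2* was expressed in 43 cells of each age and *Cd68* in 6 young and 5 old cells. *C1qb* was expressed in 2 young cells and 1 old cell, and *C1qa* and *C1qc* in 0 cells of either age. At least 1 of the cell cycle genes *Ccna2*, *Ccnb1*, *Cdk1*, *Top2a* and *Mki67* was expressed in 35 young and 22 old cells. The X-inactivation RNA *Xist* was expressed in 50 of the 52 young cells but 8 of the 62 old ones. The Y-linked *Ddx3y* was expressed in 38 old cells and 0 of 52 young cells. A count of 0 there allows a share of up to 5.77%, an approximate 1-sided 95% bound taken as 3 cells over 52. Of the 8 old cells with *Xist*, 6 also expressed *Ddx3y*. Age, mouse, sex-linked expression and capture therefore changed together and cannot be told apart. The part of platelet, cell cycle and other cell type transcripts in the differences below was not tested beyond the values given beside them. Without the 8 old cells expressing *Xist*, the differences were 1.16 for *Txnip*, −1.81 for *Cat*, −1.32 for *Gpx1* and, now at the size called, −1.17 for *Sod2*.

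Old HSCs held more *Txnip* and less *Cat* and *Gpx1* than young HSCs, by the rule of size. Of the 9 members expressed in at least 10% of cells, 1 was called higher and 2 were called lower. These are 11.1% and 22.2%, beside 6.24% and 6.98% of all 9374 genes, and 1 gene makes up 11.1% of so short a list. The members lay on both sides of 0, with 5 of the 10 above and 5 below, and the median over the 9 expressed members was −0.13. The FoxO factors and sestrins stayed within 0.52 of their young level in mean log2(CPM + 1). This picture depended on the scale. As log2 ratios of mean CPM, *Foxo3* was at −2.28 and *Sesn3* at 1.72, with *Foxo1* at −0.41 and *Sesn1* at 0.41. On that scale *Txnip*, *Cat* and *Gpx1*, at 0.93, −0.86 and −0.98, were under the size called.

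**Figure D1:**
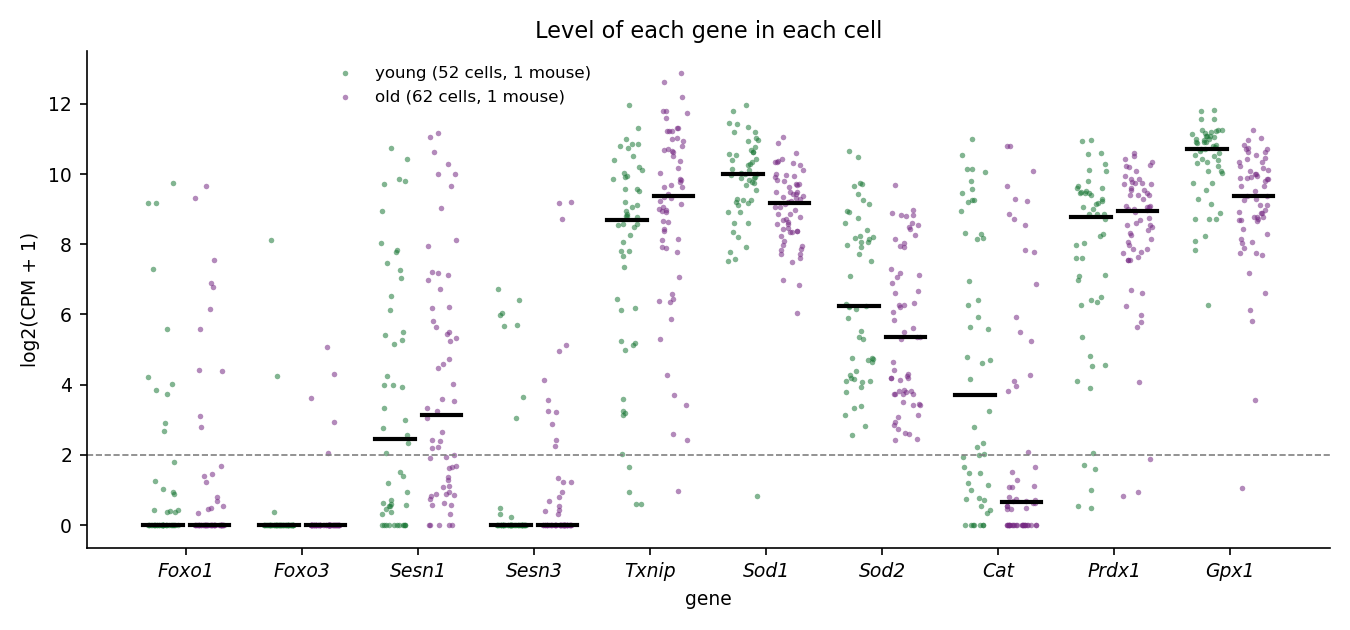
Level of each of the 10 genes in each HSC, as log2(CPM + 1), for 52 young (green) and 62 old (purple) cells of 1 mouse each. Black bars are medians and the dashed line is the limit of 2 for an expressing cell. *Gpx1*, *Sod1*, *Prdx1* and *Txnip* lay high in most cells, *Cat* and *Sesn1* spread from 0 to above 10, and *Foxo1*, *Foxo3* and *Sesn3* were at 0 in most cells of both ages.

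*Foxo1* (chr3:52268337-52350109, plus strand, GRCm38) was found in few HSCs. In young cells its lowest and median levels were 0 and its highest was 9.74, and in old cells they were 0, 0 and 9.66. It was expressed in 11 of 52 young cells (21.2%, exact Clopper-Pearson 95% interval 11.1 to 34.7%) and in 11 of 62 old cells (17.7%, 9.20 to 29.5%), and these intervals, like all that follow, cover counting error only. The mean was 1.35 ± 2.58 (SD over cells) in young and 1.22 ± 2.48 in old HSCs, a difference of −0.13. In the cells that expressed it the mean was 5.67 in young and 6.06 in old HSCs. One cell held 37.3% of the summed CPM of *Foxo1* in the young mouse and 39.6% in the old, and the difference ranged from −0.27 to 0.03 when any 1 cell was left out. The ages overlapped over almost the whole range, and no direction could be given for *Foxo1*.

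*Foxo3* (chr10:42181845-42276695, minus strand), the FoxO factor with the best known role in HSC maintenance, was the only member expressed in under 10% of cells. It passed the limit in 2 young cells (3.85%, 0.469 to 13.2%) and 5 old cells (8.06%, 2.67 to 17.8%). No read of *Foxo3* was counted in 49 of the 52 young and 57 of the 62 old cells. The highest level was 8.12 in young and 5.08 in old cells, and the mean was 0.24 and 0.29. A single young cell held 93.9% of the young signal, so the log2 ratio of mean CPM was −2.28 while the difference of mean log2 levels was 0.05. Only 1 cell of each age expressed both *Foxo1* and *Foxo3*, and neither was expressed in 40 young and 47 old cells. Both factors were thus found in few cells, some of them with high levels of *Foxo1*, and with each cell thinned to 250000 reads the share expressing *Foxo1* was 23.1% at the young and 19.4% at the old age.

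Sestrins are stress-induced proteins that restrain mTORC1, the growth-promoting kinase complex, and help to restore oxidised peroxiredoxins. *Sesn1* (chr10:41810574-41908436, plus strand) had a lowest, median and highest level of 0, 2.45 and 10.7 in young cells and of 0, 3.15 and 11.2 in old cells. It was expressed in 28 young cells (53.8%, 39.5 to 67.8%) and 38 old cells (61.3%, 48.1 to 73.4%), and its mean was 3.48 ± 3.48 in young and 3.999 ± 3.34 in old HSCs. The difference of 0.52 was under the size called, and 33 of the 62 old cells lay above the young median. In the 17 young and 40 old cells that expressed none of the 5 cell cycle genes the difference was −0.02. *Sesn3* (chr9:14276301-14326134, plus strand) was rarer, with 8 young (15.4%, 6.88 to 28.1%) and 12 old (19.4%, 10.4 to 31.4%) expressing cells. Its median was 0 at both ages, its highest level was 6.72 in young and 9.20 in old cells, and its mean was 0.85 in young and 1.08 in old HSCs, a difference of 0.23. One old cell held 34.1% of the old *Sesn3* signal, and the log2 ratio of mean CPM was 1.72. Only 6 young and 4 old cells expressed both sestrins.

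*Txnip* (chr3:96557957-96561857, plus strand) encodes the thioredoxin-interacting protein, which binds and inhibits thioredoxin and lowers glucose uptake. It was the only member called higher in old HSCs. Its lowest, median and highest levels were 0.60, 8.69 and 11.97 in young cells and 0.97, 9.39 and 12.9 in old cells. The mean was 7.66 ± 3.07 in young and 8.93 ± 2.62 in old HSCs, a difference of 1.27 that placed *Txnip* at rank 322 from the highest of 9374 genes. Of the 62 old cells, 40 lay above the young median and 22 below, so the ages overlapped widely. Expressing cells numbered 48 of 52 in the young mouse (92.3%, 81.5 to 97.9%) and 61 of 62 in the old (98.4%, 91.3 to 99.96%), and in those cells the mean was 8.22 in young and 9.06 in old HSCs. Mean CPM was 659 in young and 1255 in old HSCs, a 1.90-fold higher value and a log2 ratio of 0.93, just under the size called. The difference was between 1.13 and 1.40 without any 1 cell and 1.46 in cells without cell cycle transcripts. The gene *Gm15441* runs antisense across *Txnip* and was expressed in 14 young and 18 old cells, and since no source states that reads were counted by strand, reads of the pair cannot be told apart.

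The promoter of *Txnip* is shown because it holds the FoxO letters, in capitals, and belongs to the only member called higher. The 250 bases before the RefSeq start of *Txnip* (chr3:96557707-96557956, plus strand, GRCm38) have a GC content of 66.8%, and GTAAACA begins 121 bases before the start.
Txnip: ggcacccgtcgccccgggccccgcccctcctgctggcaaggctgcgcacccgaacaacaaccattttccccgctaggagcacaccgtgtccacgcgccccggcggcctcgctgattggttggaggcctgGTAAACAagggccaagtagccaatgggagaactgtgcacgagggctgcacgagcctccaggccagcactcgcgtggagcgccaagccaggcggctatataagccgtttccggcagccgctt
For *Sesn1*, the other member with these letters, the 30 bases around them (chr10:41810585-41810614, plus strand, GRCm38) carry the reverse complement, which begins at base 23, counting the start as base 1.
Sesn1: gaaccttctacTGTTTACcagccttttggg
The letters GTAAACA were searched on both strands from 250 bases before to 50 bases after each RefSeq start. They were in a promoter of 2 of the 10 members, which had 11 promoters together, and in 3.65% of 32851 promoters. The members here are counted as genes with any matching promoter, whereas the percentages are of single promoters. A match of letters is not evidence of binding. The core of the antioxidant response element, TGACNNNGC, to which the oxidative stress factor Nrf2 binds, was in 12.4% of promoters and in those of *Prdx1* and *Sod1*. The 30-base stretches that hold it, in capitals and in reverse complement, lie at chr4:116685456-116685485 for *Prdx1* and chr16:90220696-90220725 for *Sod1*, plus strand, and the core begins 133 and 56 bases before the start.
Prdx1: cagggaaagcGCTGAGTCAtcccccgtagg
Sod1: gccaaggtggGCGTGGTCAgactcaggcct
The E box CACGTG was in 7.15% of promoters and in 0 of the 10 members, which says only that these letters are not in the window. The promoter with FoxO letters of *Txnip* and that of *Sesn1* belonged to genes with differences of 1.27 and 0.52, and the promoters with the Nrf2 core to genes with differences of 0.85 and −0.69.

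The superoxide dismutases were expressed in nearly every HSC. *Sod1* (chr16:90220762-90226333, plus strand), the copper and zinc enzyme of the cytosol, had a lowest, median and highest level of 0.85, 9.99 and 11.97 in young cells and of 6.03, 9.17 and 11.1 in old cells. Its mean was 9.73 ± 1.65 in young and 9.04 ± 1.03 in old HSCs, a difference of −0.69, and 51 of the 62 old cells lay below the young median. It was expressed in 51 of 52 young cells (98.1%, 89.7 to 99.95%) and in all 62 old cells (lower bound 94.2%). The end of *Sod1* overlaps *Scaf4* on the opposite strand, which was expressed in 13 young and 15 old cells. *Sod2* (chr17:13007839-13018119, plus strand), the manganese enzyme of mitochondria, was expressed in all 52 young and all 62 old cells, with a lowest, median and highest level of 2.58, 6.25 and 10.7 in young and 2.43, 5.35 and 9.68 in old cells. Its mean was 6.50 ± 2.29 in young and 5.56 ± 2.15 in old HSCs. The difference of −0.94 was under the size called, and ranged from −1.02 to −0.86 without any 1 cell. Mean CPM of *Sod2* was 252 in young and 126 in old HSCs, a log2 ratio of −0.998. Both dismutases thus lay lower in old HSCs with overlap between the ages, and neither was called. The call of *Sod2* depended on the setting: it passed the size called under 5 of 11 other settings, with −1.24 in cells of at least 1000000 reads, −1.25 after thinning and −1.12 in cells without cell cycle transcripts. *Sod1* passed it under 2, with −1.11 in all deposited cells and −1.05 without cells expressing transcripts of other cell types.

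*Cat* (chr2:103453904-103485153, minus strand) encodes catalase, the peroxisomal enzyme that splits hydrogen peroxide into water and oxygen. It had the largest fall of the members in mean log2(CPM + 1), though not on mean CPM, where *Foxo3*, *Sod2*, *Gpx1* and *Sod1* had lower log2 ratios, nor without cells expressing transcripts of other cell types. Its lowest, median and highest levels were 0, 3.70 and 10.996 in young cells and 0, 0.65 and 10.8 in old cells. It was expressed in 32 of 52 young cells (61.5%, 47.02 to 74.7%) but in 20 of 62 old cells (32.3%, 20.9 to 45.3%). The mean fell by 1.94, from 4.49 ± 3.81 to 2.56 ± 3.55, rank 43 from the lowest of 9374 genes. The cells that did express *Cat* held similar amounts, with a mean of 6.88 in 32 young and 7.17 in 20 old cells, so the fall lay in how many cells passed the limit. With each cell thinned to 250000 reads, 65.4% of young and 35.5% of old cells expressed it, and at least 1 *Cat* read was counted in 86.5% of young and 61.3% of old cells. The fall was smaller on the linear scale, with a mean CPM of 255 in young and 140 in old HSCs and a log2 ratio of −0.86. It also depended on the cells used: it was −1.42 in cells without cell cycle transcripts and −0.47, below the size called, in the 19 young and 32 old cells that expressed no listed B cell, T cell, granulocyte or erythroid transcript.

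*Prdx1* (chr4:116685599-116700000, plus strand), a peroxiredoxin of the cytosol that removes peroxides with electrons from thioredoxin, was the only antioxidant enzyme of the members with a higher mean in old HSCs. Its lowest, median and highest levels were 0.48, 8.79 and 10.96 in young cells and 0.84, 8.95 and 10.6 in old cells. The mean was 7.47 ± 2.90 in young and 8.32 ± 2.09 in old HSCs, a difference of 0.85, and 47 young (90.4%, 79.0 to 96.8%) and 59 old cells (95.2%, 86.5 to 99.0%) expressed it. The medians differed by 0.17 only, and mean CPM was 493 in young and 540 in old HSCs, a log2 ratio of 0.13. The lower quartile was 6.32 in young and 7.80 in old cells, so the ages differed in the cells with little *Prdx1* and hardly at all in those with much. In the cells without cell cycle transcripts the difference was 1.65, above the size called. RefSeq lists a pseudogene copy, *Prdx1-ps*, which may share reads with *Prdx1*.

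*Gpx1* (chr9:108339080-108340342, plus strand), the main glutathione peroxidase of the cytosol, differed in the whole population. Its lowest, median and highest levels were 6.28, 10.7 and 11.8 in young cells and 1.06, 9.38 and 11.3 in old cells. Of the 62 old cells, 57 lay below the young median. The mean fell by 1.25, from 10.33 ± 1.13 to 9.08 ± 1.74, rank 343 from the lowest, and it was between −1.33 and −1.12 without any 1 cell. All 52 young cells (lower bound 93.2%) and 61 of 62 old cells (98.4%, 91.3 to 99.96%) expressed *Gpx1*, so this was a difference in level and not in the number of expressing cells. Mean CPM was 1597 in young and 811 in old HSCs, a 1.97-fold lower value in old cells and a log2 ratio of −0.98, just under the size called. In the cells without cell cycle transcripts the difference was −0.68, below the size called, and those cells were 17 of 52 in the young and 40 of 62 in the old mouse. The part of cell cycle expression in the fall was not tested.

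**Figure D2:**
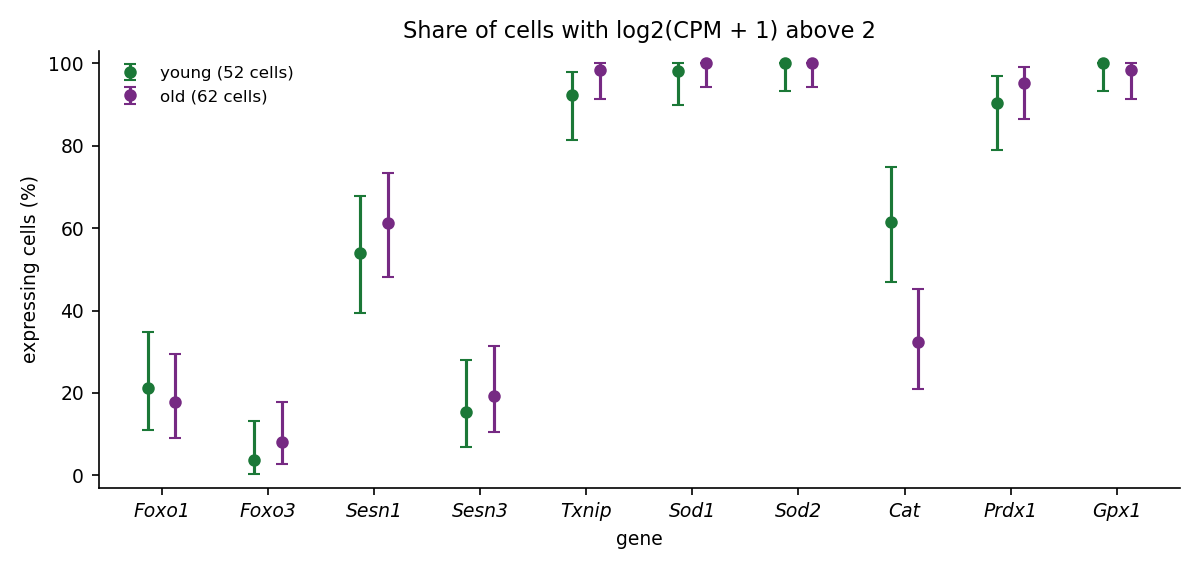
Percentage of HSCs with log2(CPM + 1) above 2 for each gene, young (green, 52 cells) and old (purple, 62 cells), with exact Clopper-Pearson 95% intervals for counting error. The interval of *Cat* was 47.02 to 74.7% for the young and 20.9 to 45.3% for the old mouse.

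The 5 enzymes together made up a smaller part of the counted transcripts in old HSCs. Their summed CPM had a lowest, median and highest value of 732, 3878 and 7111 in young cells and of 396, 2300 and 4726 in old cells. The log2 ratio of the medians was −0.75, and it stayed between −0.61 and −0.88 under 10 other settings. *Gpx1* and *Sod1* supplied most of it, with a median sum of 2828 in young and 1564 in old cells. The balance between the enzymes also differed, as *Prdx1* made up a median of 10.6% of the sum in young and 22.9% in old cells and *Gpx1* 42.9% in young and 31.5% in old cells, while the share of *Sod1* was 28.8% and 29.9%. Cells expressed a median of 6 of the 10 members at both ages, with a range of 4 to 9 at both. The log2 ratio of *Txnip* to *Txn1*, the cytosolic thioredoxin that it inhibits, had a median of 1.55 in young and 2.74 in old cells, and *Txn1* itself had a mean of 6.06 in young and 5.94 in old HSCs.

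**Figure D3:**
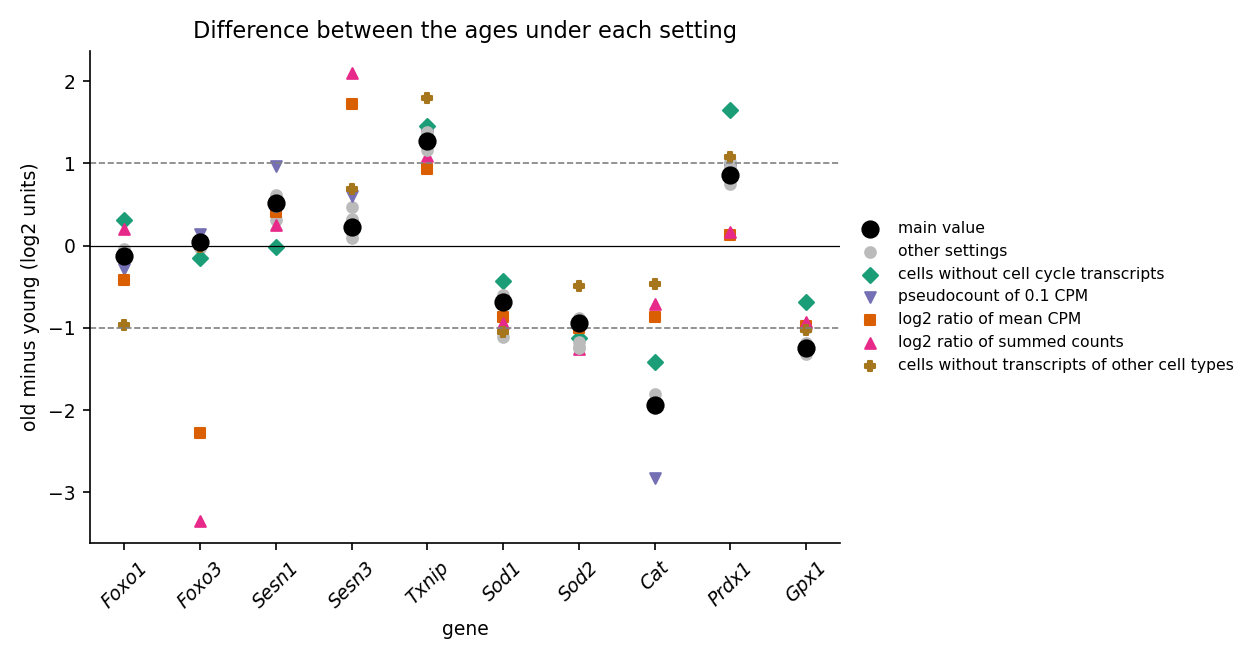
Difference between old and young HSCs for each member, in log2 units, as reported (black) and under 11 other settings of cells, scale and normalization, with dashed lines at the size of 1 that was called. *Txnip* and *Prdx1* were above 0 and *Sod1*, *Sod2*, *Cat* and *Gpx1* below 0 under all of these settings, whereas *Foxo1*, *Foxo3* and *Sesn1* crossed 0 under at least 1.

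Divided by the exon length of each gene, the levels followed the same broad order at both ages. In young HSCs the median CPM per kilobase was 1581 for *Sod1* and 1567 for *Gpx1*, 173 for *Prdx1*, 146 for *Txnip*, 12.8 for *Sod2*, 4.85 for *Cat* and 1.13 for *Sesn1*, and it was 0 for *Foxo1*, *Foxo3* and *Sesn3*. In old HSCs it was 899 for *Sod1*, 622 for *Gpx1*, 237 for *Txnip*, 195 for *Prdx1*, 6.81 for *Sod2*, 1.99 for *Sesn1* and 0.22 for *Cat*. *Sod1* and *Gpx1* stood apart from the other enzymes in young cells, where the lower quartile of *Gpx1* was 925 and the upper quartile of *Prdx1* was 279. Neighbours in the order with overlapping quartiles at both ages were *Sod1* and *Gpx1*, *Prdx1* and *Txnip*, and *Cat* and *Sesn1*. The quartiles of *Sod2* also overlapped those of *Cat* and *Sesn1* at both ages, although it stood next to *Cat* only in young and next to *Sesn1* only in old cells. The SD of CPM over its mean was 0.53 for *Gpx1*, 0.72 for *Sod1*, 1.20 for *Txnip* and 1.75 for *Cat* in young cells against 0.71, 0.67, 1.20 and 2.63 in old cells. It did not simply follow the level, as *Txnip* had the highest mean CPM of the members in old cells and varied more than *Sod1* and *Gpx1*.

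Correlations between members over cells were weak. Of the 45 pairs of members, 2 had a Pearson r of at least 0.3 in size over the 52 young cells and 2 over the 62 old cells, and none did at both ages. The highest r was 0.43 in young cells, between *Sod1* and *Prdx1*, and 0.36 in old cells, between *Sod1* and *Gpx1*. For *Sod1* and *Prdx1* in young cells, 1 cell lay low in both, at 0.85 and 0.997, while every other young cell had *Sod1* at 7.51 or more. By Spearman this pair had 0.25, and its r without that cell was not computed. The lowest r was −0.38 in young cells, between *Sesn1* and *Gpx1*, and −0.36 in old cells, between *Sesn3* and *Prdx1*. Each is a description of the cells of 1 mouse, which share a depth range and a capture. Some members moved with the number of expressed genes per cell, with an r of 0.46 for *Prdx1* in young cells and 0.40 for *Sod2* in old cells, and *Sod2* in old cells had an r of −0.41 with the counted reads. *Txnip* in old cells had an r of −0.34 with the summed cell cycle transcripts, and −0.04 in young cells.

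**Figure D4:**
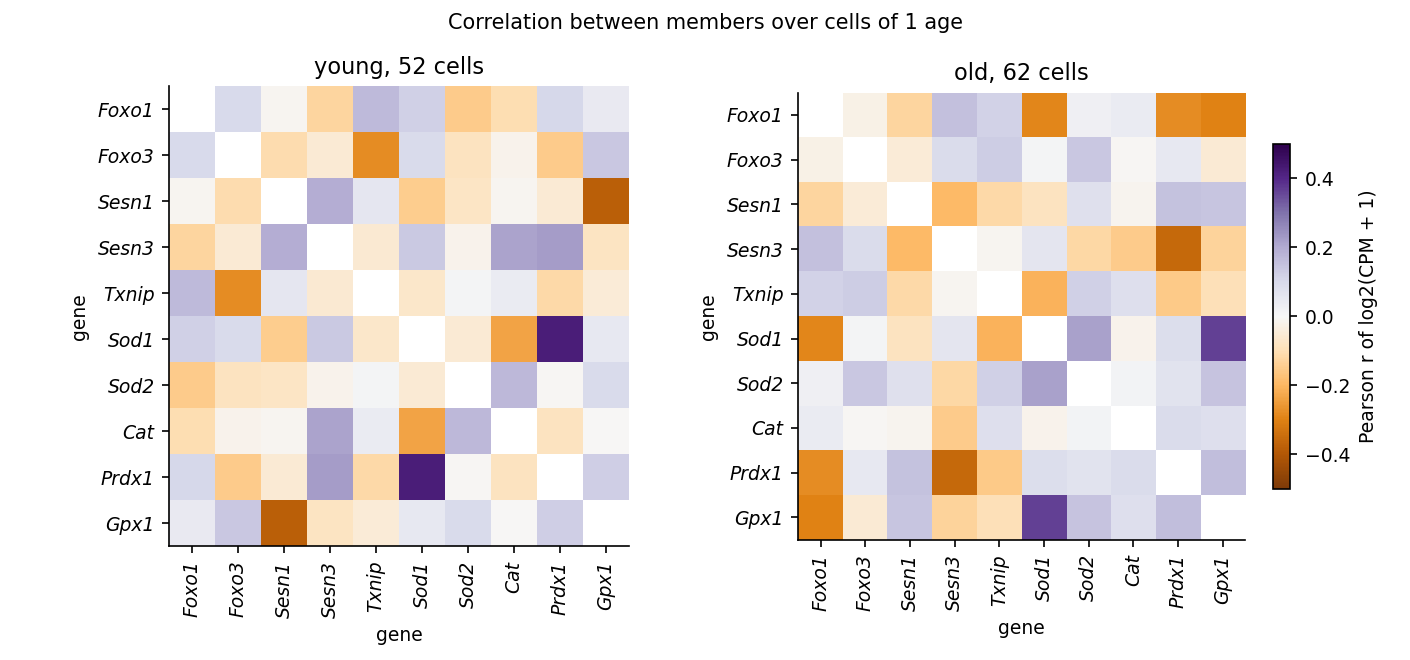
Pearson r of log2(CPM + 1) between members over the 52 young and the 62 old HSCs, from orange (negative) to purple (positive), with the diagonal left blank. The strongest squares, *Sod1* with *Prdx1* at 0.43 in young cells and *Sod1* with *Gpx1* at 0.36 in old cells, are not the same pair at both ages.

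Among 5251 genes expressed in at least 25% of cells of both ages, the genes most like each member were those with the highest value of the lower r of the 2 ages. *Sod1* was most like *Tubb5*, with an r of 0.45 in young and 0.41 in old cells, followed by *Atpif1* and *Stmn1*. *Txnip* was most like *Malat1*, with 0.34 and 0.40, followed by *Ifitm1* and *Mmachc*. For *Prdx1* these were *Banf1*, *Atp5j2* and *Higd1a*, for *Gpx1* *Pdap1*, *Alyref* and *Mrpl13*, and for *Sod2* *Gm10389*, *Zfp830* and *Psma2*. For *Cat* they were *Txlng*, *Dtymk* and *Ube2b*, and for *Sesn1* *Zfp825*, *Pacs2* and *Fam204a*. All these r values were under 0.5, and none of the genes was another member.

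The genes around the members in their pathways were described in 7 lists, of which 99 genes were expressed in at least 10% of cells. Of these, 10 were called higher and 8 lower in old HSCs, or 10.1% and 8.08%, beside 6.24% and 6.98% of all genes. The median over the 99 was 0.09. The counts of each list below stand beside the same shares of all genes, 6.24% and 6.98%. The list medians below are of differences in mean log2(CPM + 1), and they too depended on the scale. As log2 ratios of mean CPM, the medians were 0.10 upstream of the FoxO factors and 0.01 for FoxO target genes. They were 0.10 for superoxide and peroxide enzymes, 0.03 for thioredoxin and glutathione systems and 0.45 for the Nrf2 pathway. For NADPH oxidase the median was −0.33 and for the list of alpha-arrestins 0.62.

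Upstream of the FoxO factors, 3 of 25 expressed genes were called higher and 3 lower, with a median of 0.22. *Akt1*, a kinase that sends FoxO factors out of the nucleus, had a mean of 2.12 in young and 3.45 in old HSCs and was expressed in 17 and 31 cells. *Sgk1*, another kinase that acts on FoxO factors, only just reached the size called, at 1.01, with 6 of 52 young and 15 of 62 old expressing cells. For *Sgk1*, 1 cell held 92.8% of the summed CPM in the young mouse and 1 cell held 51.8% in the old. The genes called lower were *Pik3cd*, *Rictor* and *Stk4*, with differences of −1.31, −1.58 and −1.25. *Pik3cd* is a catalytic subunit of the lipid kinase above Akt, and *Rictor* a subunit of the mTORC2 complex that activates Akt. *Stk4* is a stress kinase that acts on FoxO factors. As log2 ratios of mean CPM, *Pik3cd* was at −2.75, but *Rictor* at −0.82 and *Stk4* at −0.25 were under the size called. In the old mouse, 1 cell held 53.5% of the summed CPM of *Rictor*.

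Among known FoxO target genes, 3 of 18 were called higher and 0 lower, with a median of 0.22. *Cdkn1a*, the cell cycle inhibitor p21, was expressed in 2 of 52 young cells (3.85%, 0.469 to 13.2%) and 16 of 62 old cells (25.8%, 15.5 to 38.5%), and its mean was 0.33 in young and 1.54 in old HSCs. *Map1lc3b*, which codes for a protein of the autophagosome membrane, had a mean of 7.27 and 8.89, and *S1pr1*, a receptor for sphingosine 1-phosphate, of 1.16 and 2.27. *Insr*, the insulin receptor, had a difference of −0.99, just under the size called. The cell cycle inhibitor *Cdkn1b* had a mean of 4.26 in young and 3.86 in old HSCs.

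The superoxide and peroxide enzymes outside the members were closer between the ages, with 0 of 6 called in either direction and a median of 0.19. *Prdx6* had a mean of 7.79 in young and 8.29 in old HSCs, *Gpx4*, which removes lipid peroxides, of 6.78 and 6.50, *Prdx5* of 3.89 and 4.77, and *Prdx4* of 3.14 and 2.37. *Gpx4*, the only glutathione peroxidase of the list expressed in at least 10% of cells, had a difference of −0.28 beside −1.25 for *Gpx1*.

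In the thioredoxin and glutathione systems 2 of 24 genes were called higher and 2 lower, with a median of −0.09. *Gstm1*, a glutathione transferase, had the largest difference of all the lists, 3.66, with a mean of 4.15 in young and 7.81 in old HSCs and 32 of 52 and 58 of 62 expressing cells. It belongs to a family of similar genes between which reads could be split. *Srxn1*, which repairs over-oxidised peroxiredoxins, was expressed in 2 young and 11 old cells and differed by 1.23. *Gclc*, the catalytic subunit of the first enzyme of glutathione synthesis, fell by 1.35, from 12 to 5 expressing cells, and the membrane enzyme *Mgst1* also fell by 1.35, from 13 to 5.

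In the Nrf2 pathway 2 of 15 genes were called higher and 1 lower, with a median of 0.35. *Sqstm1*, which codes for the autophagy receptor p62, had a mean of 1.69 in young and 3.71 in old HSCs and was expressed in 13 and 31 cells. *Keap1*, the sensor that marks Nrf2 for degradation, rose by 1.27, while *Cul3*, the ubiquitin ligase scaffold that works with it, fell by 1.20. *Nfe2l2*, which encodes Nrf2 itself, had a mean of 3.24 in young and 3.58 in old HSCs.

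Of the NADPH oxidase genes, which make superoxide, 2 of 5 were called lower and 0 higher, with a median of −0.95. The called genes were *Rac2*, a small GTPase of blood cells, with a mean of 7.63 in young and 6.47 in old HSCs, and *Rac1*, with 4.67 and 3.67. *Rac1* only just reached the size called, and its log2 ratio of mean CPM was −0.04. *Cyba*, the membrane subunit p22phox, had a difference of −0.95. The catalytic subunit *Cybb* was expressed in 0 young and 2 old cells and *Nox4* in none. Of the 6 expressed genes of the alpha-arrestins, the family of *Txnip*, and of its glucose sensor, 0 were called, and the differences were 0.72 for *Arrdc4*, −0.82 for *Arrdc1*, −0.17 for *Mlx* and 0.13 for *Mlxip*.

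**Figure D5:**
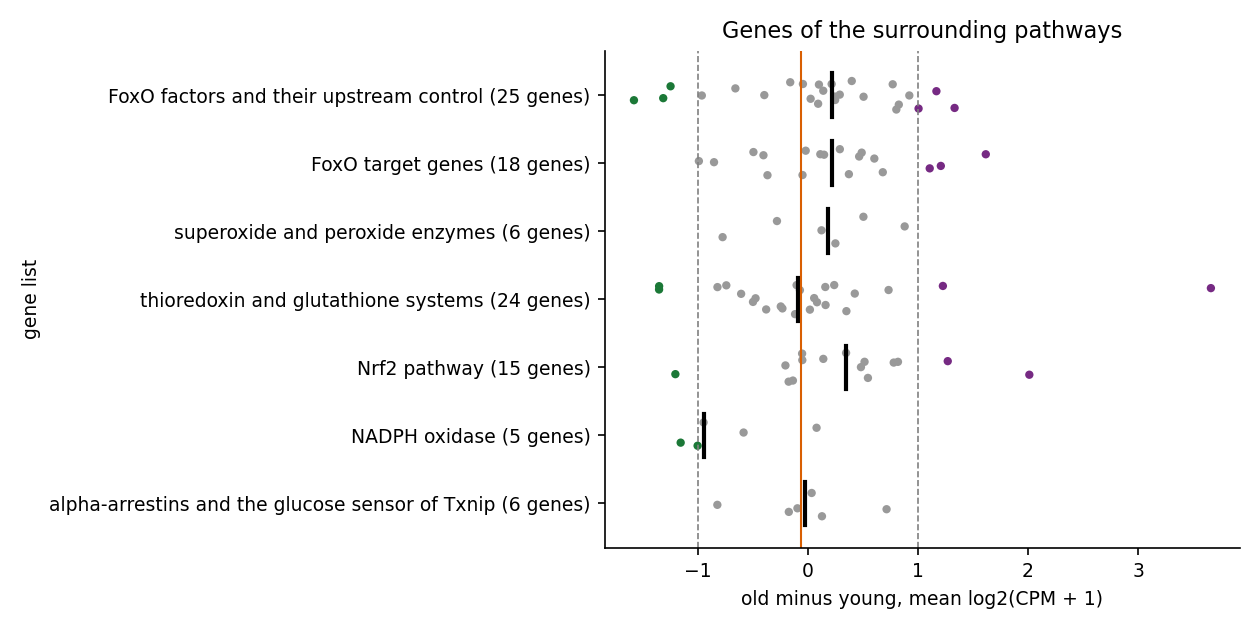
Difference between old and young HSCs in mean log2(CPM + 1) for the 99 expressed genes of the 7 pathway lists, one point per gene. Dashed lines mark the size of 1 that was called, purple and green points lie at or beyond it, black bars are list medians and the orange line is the median of all 9374 genes, −0.07. *Gstm1*, at 3.66, is the point farthest to the right.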

How the data were processed

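RNA of single HSCs was amplified from the whole transcript on C1 chips and sequenced in single-end runs of 51 bp. The authors aligned them to mm10 with TopHat2 2.0.10, keeping 1 alignment per read, and counted them on RefSeq genes with rpkmforgenes. The deposited counts per gene and cell carry no normalization, and strand use is not given in the sources used here. Reads are not independent molecules. The intervals are for numbers of cells from 1 mouse per age, so they cover counting error only.

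CPM was computed here over each cell's counted reads. Cells with at least 500000 mapped reads, at most 10% mitochondrial reads and at least 3000 detected genes were kept, from the study's table of these measures. Capture sites were imaged in the study for single cells, and no doublet caller was run. With 1 mouse per age, the Wilcoxon and Fisher tests over cells in the study's methods were not run and no p-value is given. Genes and regions are from RefSeq and GENCODE on GRCm38, the build of mm10.

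The members and lists were chosen with earlier results of these data known. Of each pathway list, at most 4 genes with the largest difference and the same sign of the log2 ratio of mean CPM were named. *Sgk1*, *Cdkn1b*, *Txn1*, *Nfe2l2*, *Cybb* and *Nox4* were named after their values were seen. The values of 1 gene counted in the lists are not reported here. Genes like a member were the 3 with the highest value of the lower within-age r. Alternatives were all deposited cells, cells with at least 1000000 reads, cells without cell cycle transcripts, a pseudocount of 0.1 CPM, ratios of mean CPM or summed counts, normalization by TMMwsp (edgeR 4.0.16) or by poscounts size factors (DESeq2 1.42.0), cells thinned to 250000 reads, no filter on low genes, and other limits for an expressing cell. Leaving out old cells with *Xist*, or cells with transcripts of other cell types, was added after the data were seen. The computing steps were run on simulated counts with the same spread for every gene, which gives no error rate for the size called in these data. Software was R 4.3.3 and Python 3.11.15 with scipy 1.17.1, pandas 2.3.3, matplotlib 3.10.9 and numpy 2.4.6.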

Additional observations from a re-analysis of the deposited data

How the results depend on the processing

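Of 110 differences of members recomputed under 11 settings, 8 turned direction (*Foxo1* under 2 settings, *Foxo3* under 5 and *Sesn1* under 1) and 12 moved by 1.5 times or more. *Txnip* passed the size called under 10 of the 11 settings, *Cat* under 8, *Gpx1* under 7, *Sod2* under 5, *Prdx1* under 3, and *Foxo3*, *Sesn3* and *Sod1* under 2. On the ratios of mean CPM and of summed counts, *Foxo3* gave −2.28 and −3.35, *Cat* −0.86 and −0.70, *Sesn3* 1.72 and 2.10, and *Prdx1* 0.13 and 0.16. *Cat* gave −2.83 with a pseudocount of 0.1 CPM, and *Prdx1* 1.65 in cells without cell cycle transcripts. Without cells expressing transcripts of other cell types, *Foxo1* gave −0.96 and *Cat* −0.47. Members called higher numbered 2 in all deposited cells, in cells without cell cycle transcripts, on summed counts and without cells expressing transcripts of other cell types. Those called lower numbered 0 on mean CPM and 1 on summed counts. They numbered 3 in cells of at least 1000000 reads, after thinning and without old cells expressing *Xist*, where *Sod2* was added. These counts leave out *Foxo3*, which was expressed in under 10% of cells, so its −2.28 and −3.35 are not among them. Pathway genes called higher numbered 17 without cell cycle transcripts, 18 with the low pseudocount, 16 on mean CPM, 19 on summed counts and 16 without transcripts of other cell types, and those called lower 18 with the low pseudocount, 13 on summed counts and 19 without transcripts of other cell types. Of all genes, the share called higher was 14.9% without cell cycle transcripts, 12.3% with the low pseudocount, 14.8% on mean CPM, 16.6% on summed counts, 10.6% without transcripts of other cell types and 3.91% with no filter on low genes. The share called lower was 15.8% with the low pseudocount, 14.8% on mean CPM, 16.7% on summed counts, 12.5% without transcripts of other cell types and 4.49% with no filter. The cause of these changes was not tested. The r of *Sesn1* and *Gpx1* in young cells was −0.27 in all deposited cells and −0.23 by Spearman, that of *Sod1* and *Prdx1* in young cells 0.25 by Spearman, and in all deposited old cells that of *Sesn3* and *Prdx1* was −0.24 and that of *Sod1* and *Gpx1* 0.13. The median difference of all genes lay between −0.11 and 0.08 under every setting. Of 100 recomputed shares of expressing cells, 23 left their interval. No replicate could be left out. No paired analysis was possible because each age is 1 mouse and cells carry no numbers that pair them. *Foxo1*, *Foxo3* and *Sesn3* had no read in most cells.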
